A study of Mus musculus with 8 samples.

Results

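Gas5 and 7 further genes that carry small nucleolar RNAs (snoRNAs) in their introns, Snhg1, Snhg3, Snhg5, Snhg6, Snhg8, Snhg11 and Snhg12, were followed in RNA from the dorsal cortex of mouse embryos at E15.5 (mid to late neurogenesis). They are 8 of the 23284 gene symbols counted. Gas5 was selected on its difference between the genotypes in these same libraries, so its difference is described here without a test, whereas the other 7 were taken by their symbols. The series holds 8 RNA sequencing libraries, 4 from WT embryos and 4 labelled ErbB4-/-, all of C57BL/6 mice, with the meninges and ganglionic eminences removed at dissection. The line labelled ErbB4-/- is null for the receptor tyrosine kinase ErbB4 and is kept alive by a transgene that restores the receptor in cardiac muscle from the alpha-MHC promoter, because loss of ErbB4 in the heart is lethal before birth. WT and ErbB4-/- embryos came from matings within separately kept homozygous lines. The comparison asked which genes of the developing cortex differ when the receptor is absent.

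A snoRNA host gene is transcribed and spliced, and the snoRNA is trimmed out of the intron that is left over. The released snoRNAs guide chemical modification of ribosomal RNA, box C/D snoRNAs guiding 2'-O-methylation and box H/ACA snoRNAs guiding pseudouridylation. The spliced exons of hosts such as Gas5 encode no conserved protein. Many begin with a run of pyrimidines (a 5' terminal oligopyrimidine, or TOP, start), and the spliced Gas5 RNA is engaged by ribosomes and degraded by nonsense-mediated decay, so that its level follows both transcription and translation. Gas5, growth arrest-specific 5, was named for its accumulation in cells that stop growing, and its RNA has been described as a decoy that binds the glucocorticoid receptor. A library made from polyadenylated RNA, as here, reads the spliced host and largely misses the mature snoRNAs.

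In mm9 (GENCODE annotation of NCBIM37), Gas5 lies on the plus strand at chr1:162964553-162968670 with 25 annotated transcripts, and 9 box C/D snoRNA genes lie inside it. Snhg1, at chr19:8797986-8800932 on the plus strand, holds 8. Snhg12, at chr4:131864593-131866939 on the plus strand, holds 4, and Snhg3, at chr4:131903929-131909601 on the minus strand, holds 2 (Snora73a and Snora73b). Snhg5, at chr9:88415894-88417721 on the minus strand, and Snhg11, at chr2:158201374-158211881 on the plus strand, hold 2 each. Snhg12 and Snhg3 are neighbours, 36989 bases apart. Snhg6 and Snhg8 could not be placed under these symbols in that annotation, and no position is given for them.

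The following box C/D snoRNAs show what these hosts carry. They were read from the mm9 genome, 5' to 3' on the strand of the host, with the C box (TGATGA, searched in the first 20 bases) and the D box (CTGA, searched in the last 15) in capitals. Snord47 is at chr1:162968213-162968289 and SNORD44 at chr1:162966813-162966872, both in Gas5, and Snord99 is at chr4:131866606-131866679, in Snhg12.
Snord47: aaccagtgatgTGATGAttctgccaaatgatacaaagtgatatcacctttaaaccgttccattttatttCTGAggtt
SNORD44: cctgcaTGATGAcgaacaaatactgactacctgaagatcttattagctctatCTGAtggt
Snord99: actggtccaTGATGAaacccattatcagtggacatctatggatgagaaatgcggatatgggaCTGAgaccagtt
Both boxes, spelled exactly so, were present in 7 of the 9 snoRNA genes inside Gas5, beside 69.9% of the 346 genes of the annotation with a SNORD name.

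The starts of the hosts were compared because a pyrimidine run at the first base marks TOP RNAs. RefSeq windows of GRCm38.p6 were found for 7 of the 8 members. Each line below shows 40 bases before the annotated start and 25 from it, so that base 41 is the start. Capitals mark the longest unbroken run of C or T between 10 bases before the start and 15 after it, and the letters TATA where they began 40 to 20 bases before the start on the transcribed strand. Gas5 has 2 annotated starts, and both are shown.
Gas5, first start: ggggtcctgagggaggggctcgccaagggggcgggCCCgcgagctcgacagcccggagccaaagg
Gas5, second start: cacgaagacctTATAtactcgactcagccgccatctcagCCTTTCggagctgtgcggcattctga
Snhg1: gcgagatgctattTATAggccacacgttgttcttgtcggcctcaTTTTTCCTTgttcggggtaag
Snhg5: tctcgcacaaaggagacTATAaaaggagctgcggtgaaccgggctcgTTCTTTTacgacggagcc
Snhg8: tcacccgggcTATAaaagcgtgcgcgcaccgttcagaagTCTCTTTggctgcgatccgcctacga
Snhg12: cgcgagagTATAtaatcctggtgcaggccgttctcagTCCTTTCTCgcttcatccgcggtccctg
Snhg3: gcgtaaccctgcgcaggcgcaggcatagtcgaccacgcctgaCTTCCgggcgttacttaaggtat
Snhg11: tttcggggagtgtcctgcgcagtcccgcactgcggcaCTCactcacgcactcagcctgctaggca
The letters TATA stood in this place in 5 of these 8 windows, the second start of Gas5 and those of Snhg1, Snhg5, Snhg8 and Snhg12, against 5.49% of all 32851 promoter windows. The pyrimidine run was 9 bases long in Snhg1 and Snhg12, a length reached by 5.87% of all windows. It was 7 bases in Snhg5 and Snhg8 (15.2% of windows), 6 at the second start of Gas5 (24.4%), 5 in Snhg3 (40.7%) and 3 in Snhg11 and at the first start of Gas5 (83.9%). The run included the annotated start in Snhg8 and Snhg12 and at the second start of Gas5. In Snhg1, Snhg3 and Snhg5 it began after the annotated start, and in Snhg11 and at the first start of Gas5 it ended before it. Such matches describe letters in a window and not sites in use.

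The libraries held 28205703 to 48871480 counted reads. Erbb4 itself was not lower in the libraries labelled ErbB4-/- (20.7 to 24.6 CPM, a gene's reads scaled to a fixed total per library) than in WT (8.99 to 25.3 CPM), so a library is called by its label throughout. Reads of the Y-linked gene Ddx3y reached 76.4 CPM in WT replicate 4 and 78.7 to 80.9 CPM in the 4 libraries labelled ErbB4-/-, but at most 0.495 CPM in WT replicates 1 to 3, so sex and genotype were largely confounded. WT replicate 1 stood apart from the other libraries for many genes: 29.9% of the 14696 genes tested were highest in it and 29.4% lowest. Nothing in the labels says whether each library came from 1 embryo or from a pool, and p-values therefore measure the spread between these libraries only.

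**Figure D1:**
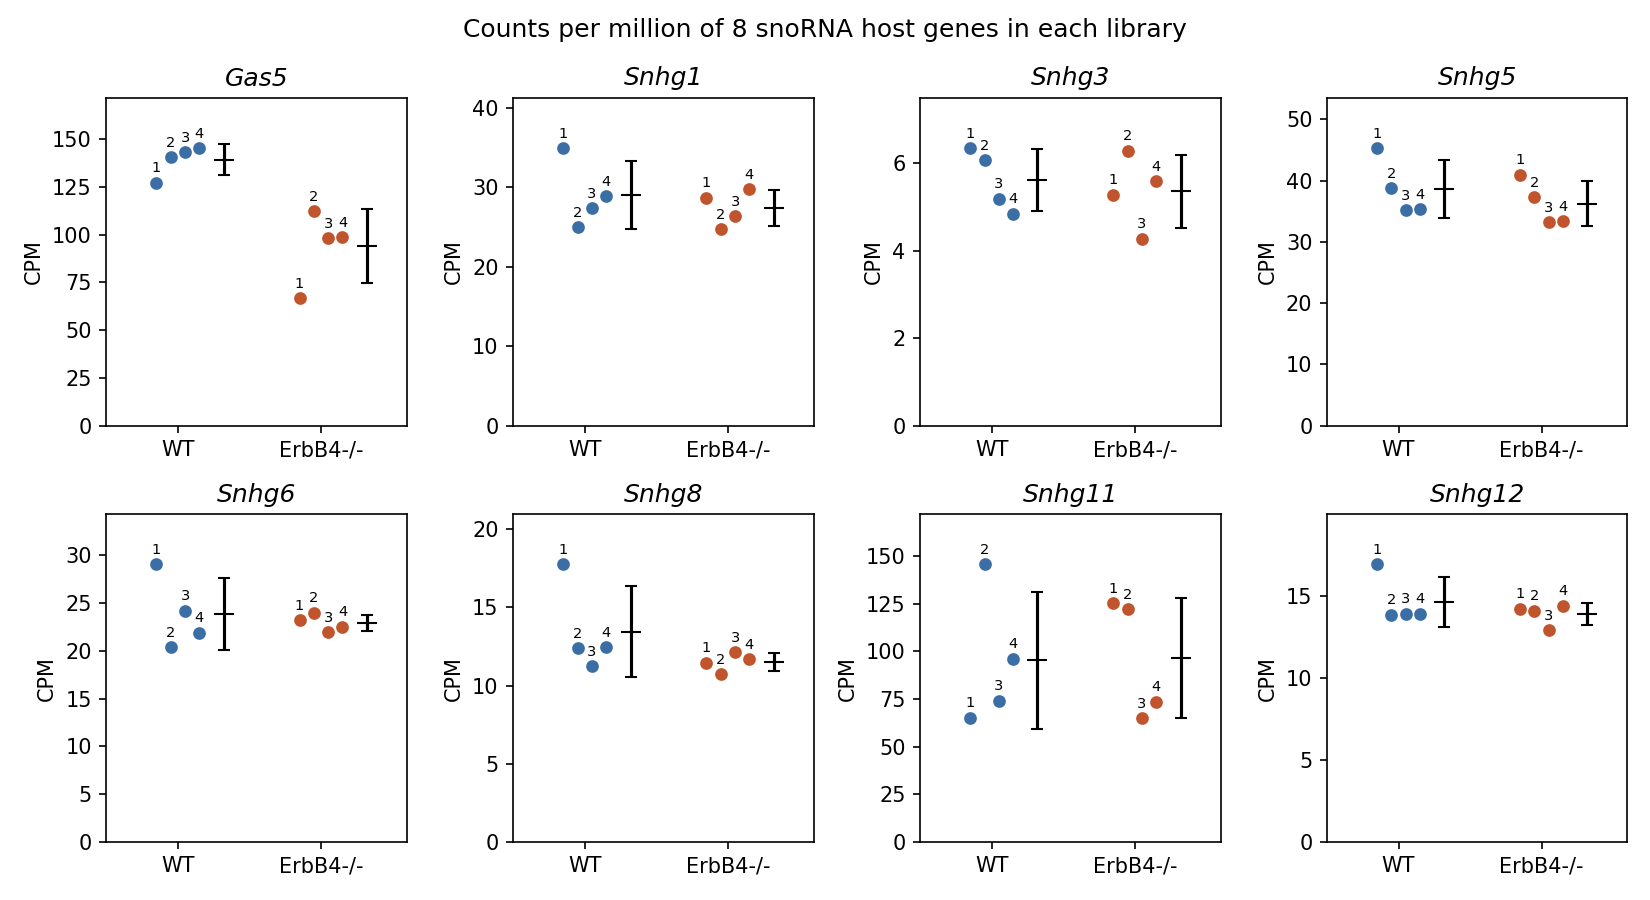
CPM of the 8 genes in each library (points, numbered by replicate; the vertical axis of each panel starts at 0) with the mean and SD of each genotype label (n = 4). Gas5 is the gene whose groups do not overlap, WT replicate 1 is the highest library for 6 genes, and Snhg11 spreads widely within both labels.

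Gas5 had the highest mean CPM of the 8 genes in WT, and in the libraries labelled ErbB4-/- its mean was close to that of Snhg11. Its level was 127 CPM in WT replicate 1, 141 in replicate 2, 143 in replicate 3 and 145 in replicate 4. In the libraries labelled ErbB4-/- it was 66.6, 112, 98.1 and 98.5 CPM in replicates 1 to 4. All 4 of these were under the lowest WT library, and replicate 1 was the lowest of all. The means were 139 ± 8.14 CPM in WT and 93.9 ± 19.4 in the libraries labelled ErbB4-/- (SD, n = 4 each), from 3102 to 5497 counted reads a library. The fitted fold was 0.674, a log2 fold change of -0.57, given as a description because these values selected the gene. Without ErbB4-/- replicate 1, the deepest library, the log2 fold change was -0.44, and without ErbB4-/- replicate 2 it was -0.67. With a term for the Ddx3y pattern it was -0.63.

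Of the 7 members other than Gas5, 0 passed an adjusted p of 0.05 in edgeR's quasi-likelihood test over all 14696 genes, where 4 genes did (0.0272% of those tested). At an unadjusted p of 0.05 the count was 0 of 7, against 5.53% of all genes, and DESeq2 and limma-voom called 0 of the 7. The libraries of the labels overlapped for all 7, where they lay on separate sides for 3.34% of all genes, and for 1.48% with those labelled ErbB4-/- lower. Nothing is read from these shares for Gas5, whose separation follows from its selection.

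The adjusted p-values of the 7 in edgeR were between 0.810 and 0.990. Snhg8, host of the box H/ACA snoRNA Snora24, had the largest difference of the 7. It was at 17.8, 12.4, 11.2 and 12.4 CPM in WT replicates 1 to 4 and at 11.5, 10.7, 12.1 and 11.7 CPM in those labelled ErbB4-/-. WT replicate 1 was well above the 7 other libraries, which lay within 10.7 to 12.4 CPM. The fold was 0.857 (95% interval 0.702 to 1.05; edgeR adjusted p = 0.810; exact two-sided permutation p = 0.171, where 0.0286 is the smallest that 70 assignments allow). Without WT replicate 1 its log2 fold change went from -0.22 to -0.06.

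Snhg5, whose introns carry SNORD50 copies, was at 45.3, 38.7, 35.2 and 35.3 CPM in WT and at 41.0, 37.3, 33.2 and 33.4 CPM in the libraries labelled ErbB4-/-. Replicate 1 was the highest within each label. The fold was 0.939 (95% interval 0.809 to 1.09; edgeR adjusted p = 0.843). Snhg1, the host of SNORD25 to SNORD31 and of Snord22, was at 35.0, 24.96, 27.4 and 28.9 CPM in WT and at 28.7, 24.7, 26.4 and 29.8 CPM in those labelled ErbB4-/-. Apart from WT replicate 1, the libraries of both labels covered the same range. The fold was 0.944 (95% interval 0.806 to 1.10; edgeR adjusted p = 0.860).

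Snhg6, the host of Snord87, was at 29.1, 20.4, 24.2 and 21.9 CPM in WT and at 23.2, 24.0, 22.0 and 22.6 CPM in the libraries labelled ErbB4-/-. Its fold was 0.961 (95% interval 0.822 to 1.12; edgeR adjusted p = 0.904). Snhg12 had the smallest ratio of highest to lowest library of the 8 genes (1.31), at 16.9 CPM in WT replicate 1 and between 12.9 and 14.4 CPM in the 7 other libraries, with a fold of 0.950 (95% interval 0.828 to 1.09; edgeR adjusted p = 0.858). Snhg3, host of the H/ACA snoRNAs Snora73a and Snora73b, was the lowest member, at 6.35, 6.06, 5.19 and 4.84 CPM in WT and 5.28, 6.29, 4.28 and 5.59 CPM in those labelled ErbB4-/-, from 167 to 260 reads a library. Its fold was 0.956 (95% interval 0.770 to 1.19; edgeR adjusted p = 0.927).

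Snhg11, which is expressed in neurons and differs from the other hosts in its length, had the widest spread. It was at 65.2, 146, 74.1 and 96.1 CPM in WT and at 125, 122, 65.0 and 73.7 CPM in the libraries labelled ErbB4-/-. High and low libraries occurred under both labels, and the coefficient of variation was 37.8% in WT and 32.8% in the others, whereas that of Snhg12 was 10.4% and 4.90%. Its fold was 1.01 (95% interval 0.682 to 1.51; edgeR adjusted p = 0.990).

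**Figure D2:**
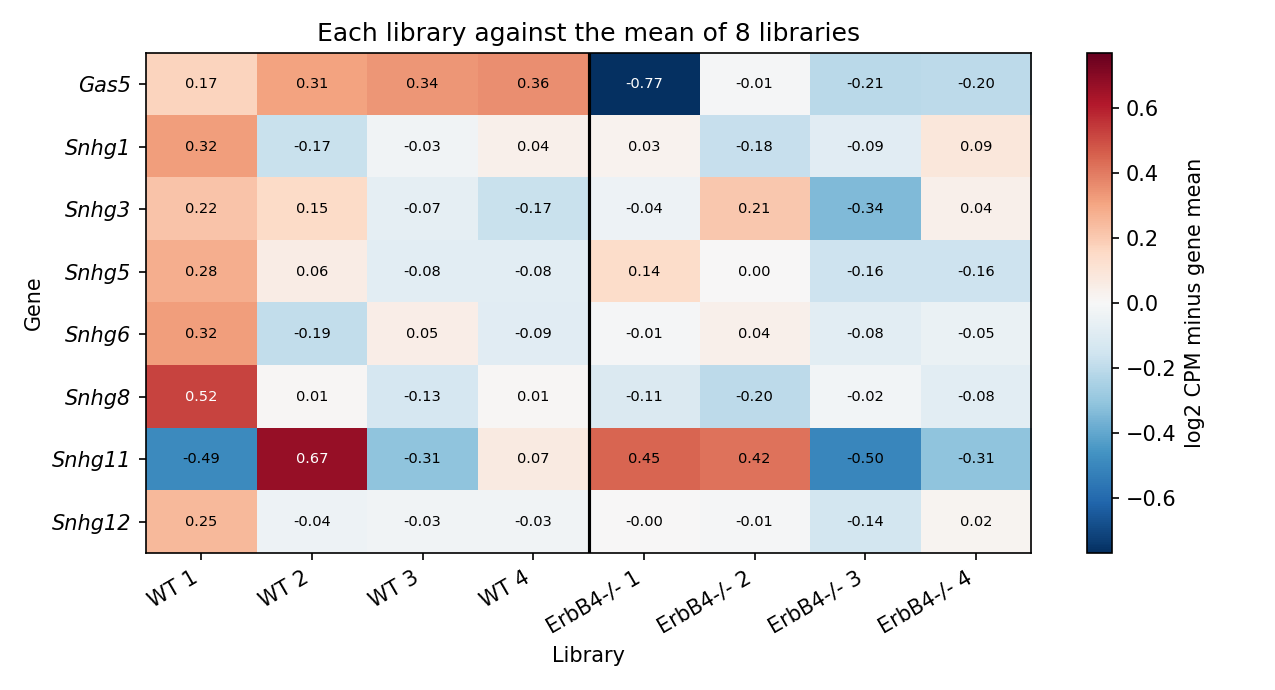
Each cell gives the log2 CPM of a gene (rows) in a library (columns) minus the mean of that gene over the 8 libraries, red above and blue below; the black line divides the labels. The column of WT replicate 1 is above 0 for every gene except Snhg11, and the lowest value is that of Gas5 in ErbB4-/- replicate 1 (-0.77).

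Snhg11 varied together with Meg3, an imprinted non-coding RNA that is also a snoRNA host and is retained in neuronal nuclei. Meg3 was at 296, 562, 345 and 411 CPM in WT replicates 1 to 4 and at 530, 540, 303 and 349 CPM in those labelled ErbB4-/-. The same libraries were thus high in both genes, and there were 21.1 to 25.96 reads of Snhg11 for every 100 of Meg3 in each library. Of all genes tested, Meg3 had the highest Pearson correlation with Snhg11 on log2 CPM (r = 0.99, Spearman rho = 0.93, 8 libraries), ahead of Tmem132e, Sema4a, Slc4a3 and Rnpc3 (r = 0.97 to 0.98). Without the 2 libraries farthest from the median of Meg3, r was 0.99. This pair was chosen after its values were seen, the 8 libraries share the depth and dissection of each sample, and r is given as a description. In bulk tissue, fewer cells of a type and less RNA per cell cannot be told apart.

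**Figure D3:**
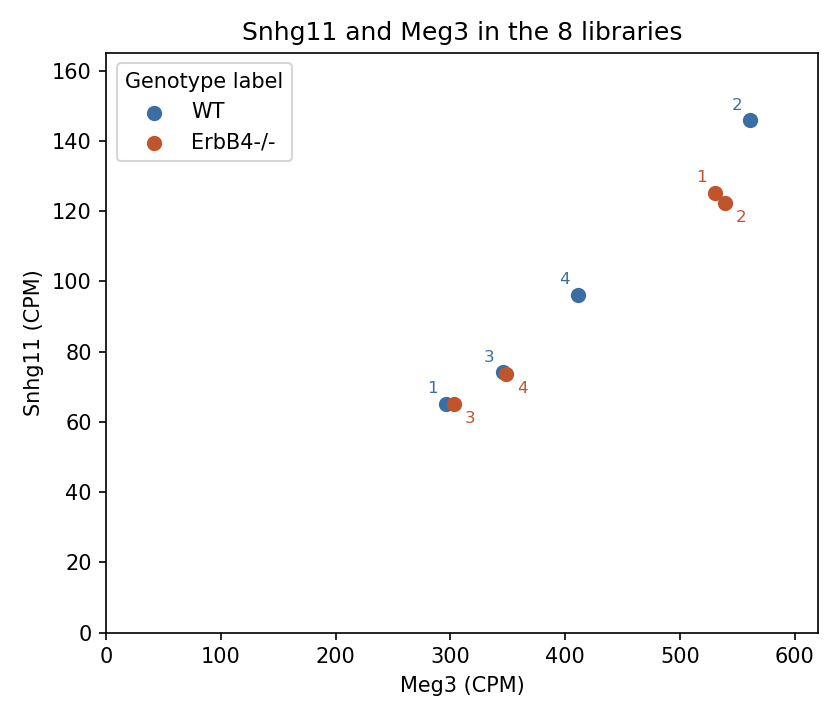
CPM of Snhg11 against CPM of Meg3 in the 8 libraries, numbered by replicate and coloured by label, with both axes starting at 0. The points lie near 1 line through both labels, from 65.0 to 146 CPM of Snhg11.

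By the same measure, the 5 genes most like Gas5 were Rgl1 (r = 0.97), Nt5dc1 (0.96), Tagln2 (0.92), Gm6654 (0.91) and 5730559C18Rik (0.91), each over 8 libraries. Since Gas5 separated the labels, this ranking favours genes that also differ between them. Rgl1, a Ral guanine nucleotide exchange factor, differed little in size (39.4 ± 0.572 CPM in WT, 36.5 ± 1.26 in those labelled ErbB4-/-), and 5730559C18Rik was at 14.6 ± 0.947 and 10.7 ± 1.68 CPM. Among the other 7 hosts the highest r with Gas5 was 0.26, for Snhg8, and Snhg11 had -0.11. The top of the ranking follows from the selected difference, so nothing is read from the distance of the hosts to it. Of those 5 genes, 3 lie on chromosome 1 with Gas5, namely Rgl1 (chr1:154363889-154613481), Tagln2 (chr1:174430178-174437511) and 5730559C18Rik (chr1:138110108-138130841). Among the 100 genes most like Gas5, 96 had a position and 21 of these were on chromosome 1, which holds 5.74% of the 14253 tested genes with a position. The ranking uses the Gas5 values that selected the gene, so nothing is read from this share. The labels lay on separate sides for 41 genes of chromosome 1 (5.01% of those tested there, beside 3.34% of all genes), and the cause was not tested. Chromosome 1 also carries Erbb4, 93.8 megabases from Gas5. The genotype lines were bred separately, so loss of the receptor and other differences between the lines on that chromosome cannot be told apart.

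Set against other hosts within a library, the mean of Gas5 was lower in the libraries labelled ErbB4-/-, but the labels overlapped. This ratio reuses the Gas5 counts that selected the gene, so its lower mean is not a second observation. Snhg11 was first left out of the sum because of its wide spread, a choice made after its values were seen. For every 100 reads of Snhg1, Snhg3, Snhg5, Snhg6, Snhg8 and Snhg12 together there were 84.7, 121, 122 and 124 reads of Gas5 in WT replicates 1 to 4. In the libraries labelled ErbB4-/- there were 53.8, 95.9, 88.4 and 84.0. The means were 113 ± 18.9 and 80.5 ± 18.5 (SD, n = 4 each), and WT replicate 1 fell among the libraries labelled ErbB4-/-. With Snhg11 in the sum there were 59.1, 53.7, 74.9 and 68.2 reads of Gas5 in WT and 26.7, 46.9, 55.8 and 51.6 in those labelled ErbB4-/-, and WT replicate 2 was the library that overlapped.

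Between genes, levels were compared per kilobase of annotated exon for the 6 members with a position. In WT, Snhg5 (38.9 ± 4.79 CPM per kb) and Gas5 (37.0 ± 2.16) were the highest and did not differ beyond their spread. Snhg11 (11.2 ± 4.23), Snhg1 (9.86 ± 1.44) and Snhg12 (8.999 ± 0.933) followed, with overlapping spreads, and Snhg3 was lowest (5.69 ± 0.722). In the libraries labelled ErbB4-/-, Gas5 was at 24.97 ± 5.15 and Snhg5 at 36.5 ± 3.71 CPM per kb. The order depends on the gene model. The authors' counts need not follow this annotation, since Snhg6 and Snhg8 were counted but have no entry under these symbols in it. Over the longest annotated transcript, Gas5 was at 54.5 ± 3.18 CPM per kb in WT, above Snhg5, and Snhg12 was at 15.7 ± 1.62, above Snhg1 (10.7 ± 1.56). Snhg3, at 9.66 ± 1.23, was then within the spread of Snhg1. The exons of the 25 Gas5 transcripts together cover 3760 bases, most of the gene (chr1:162964553-162968670), and the longest single transcript covers 2556. A spliced RNA need not hold all of these exons, so the level over all of them may understate Gas5.

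None of the tested neighbours of Gas5 passed the test. Its start overlaps that of Zbtb37, a zinc finger gene on the opposite strand, by 428 bases, and the libraries were not strand-specific, so reads in the overlap cannot be assigned to either gene. Zbtb37 was at 11.3 ± 3.63 CPM in WT and 11.7 ± 2.57 in the libraries labelled ErbB4-/- (edgeR adjusted p = 0.977), but WT replicate 1 (5.92 CPM) and ErbB4-/- replicate 1 (8.02) were its lowest libraries. The centromere protein gene Cenpl was at 18.3 ± 2.10 CPM in WT and 17.6 ± 2.46 in the libraries labelled ErbB4-/-. Rc3h1, Serpinc1 and Klhl20 were also tested within 100 kb. Around all 6 members with a position, 32 other genes were tested within 100 kb. Of these, 0 passed an adjusted p of 0.05 in edgeR, beside 0.0272% of all genes tested. At an unadjusted p of 0.05 the count was 1 of 32 (Rcc1), beside 5.53% of all genes.

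Snhg3 shares 5592 bases with Rcc1, the guanine nucleotide exchange factor of Ran, on the same strand, and reads there may have been left uncounted or split. Rcc1 was at 61.9 ± 4.84 CPM in WT and 55.1 ± 3.51 in the libraries labelled ErbB4-/- (log2 fold change -0.17, standard error (SE) 0.07, edgeR adjusted p = 0.810). For the 2 members with no mm9 position, the nearest tested genes were taken by the order of genes in RefSeq. Those of Snhg6 were Ppp1r42 (0.221 ± 0.0755 CPM in WT, 0.276 ± 0.0934 in those labelled ErbB4-/-) and 6030422M02Rik. The latter was at 0.963 to 1.31 CPM in WT and 1.33 to 1.92 CPM in those labelled ErbB4-/-, higher in each of them, without passing (log2 fold change 0.43, SE 0.20, edgeR adjusted p = 0.810, unadjusted p under 0.05). Those of Snhg8 were Prss12 and Ndst3. Ndst3, a heparan sulfate sulfotransferase, was 1 of the 4 genes that passed the test (28.2 ± 2.41 CPM in WT, 17.5 ± 1.75 in those labelled ErbB4-/-, log2 fold change -0.69, SE 0.09, edgeR adjusted p = 0.0448). Prss12, the secreted protease neurotrypsin, went the other way without passing (13.3 ± 3.28 and 22.6 ± 0.477 CPM, log2 fold change 0.76, SE 0.15, edgeR adjusted p = 0.469). Snhg8 thus lies between a gene with higher and a gene with lower levels, with its own libraries overlapping.

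Few reads fell on the snoRNAs themselves. Snord47, the 1 snoRNA of Gas5 with a row of its own, had 41, 35, 24 and 37 reads in WT replicates 1 to 4 and 61, 27, 31 and 18 in those labelled ErbB4-/-. The totals were 137 reads under each label, the labels overlapped, and the log2 fold change was -0.29 with an SE of 0.31 (edgeR adjusted p = 0.840). Snord22 in Snhg1 had 48 to 100 reads a library (log2 fold change 0.04, SE 0.20). The 4 snoRNAs of Snhg12, Snora16a, Snora44, Snora61 and Snord99, had 5 to 30 reads a library, and none passed the test (edgeR adjusted p between 0.810 and 0.917). With so few reads after selection for poly(A), a change in Snord47 of the size seen for Gas5 was not detectable.

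Other genes that host snoRNAs were looked at by lists. Of 13 further non-coding hosts tested, 0 passed the test, 4 were higher and 9 lower, with a median log2 fold change of -0.05. The most abundant were Meg3 (log2 fold change 0.09, SE 0.21), Rian (222.6 ± 21.6 CPM in WT, 236 ± 25.5 in those labelled ErbB4-/-), Snhg14 (51.6 ± 6.78 and 54.8 ± 2.46) and Zfas1 (39.0 ± 5.80 and 35.9 ± 1.51). Zfas1 and Snhg14, with Dancr, Snhg15, Snhg16, Snhg17, Snhg18 and Snhg20, were found under older symbols. Dancr, at 5.07 ± 0.766 and 4.39 ± 0.736 CPM, had the lowest log2 fold change of these (-0.20, SE 0.16).

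Of 38 protein-coding hosts, mainly ribosomal proteins and translation factors, 0 passed, 5 were higher and 33 lower, with a median of -0.10. The elongation factor Eef2 was at 3212 ± 169 CPM in WT and 3194 ± 26.9 in the libraries labelled ErbB4-/-. The ribosomal protein gene Rpl4 was at 1021 ± 153 and 972 ± 30.4, Gnb2l1, which encodes the ribosomal scaffold RACK1, at 975 ± 127 and 922 ± 23.5, and nucleolin (Ncl) at 712 ± 53.8 and 679 ± 23.1. Of 18 genes for snoRNP proteins and their assembly factors, 0 passed, 2 were higher and 16 lower, with a median of -0.10. Among them were Nolc1 (124.9 ± 4.39 and 122.3 ± 1.602 CPM), Nop58 (119.3 ± 9.64 and 115.6 ± 3.04), Ruvbl2 (118 ± 12.1 and 109.7 ± 3.22) and Nop56, itself a host (86.3 ± 2.19 and 80.5 ± 2.55). The median over all genes tested was -0.002.

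These medians were nearer 0 without WT replicate 1 and with the length trend of each library removed. Without WT replicate 1 the median was -0.002 for the 7 members other than Gas5, -0.01 for the other non-coding hosts, -0.006 for the protein-coding hosts, of which 18 were then higher, and -0.02 for the snoRNP genes. With the length trend removed and all 8 libraries kept, the medians were -0.02, -0.01, -0.06 and -0.04 in the same order. The log2 fold change of Gas5 was -0.61 without WT replicate 1.

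**Figure D4:**
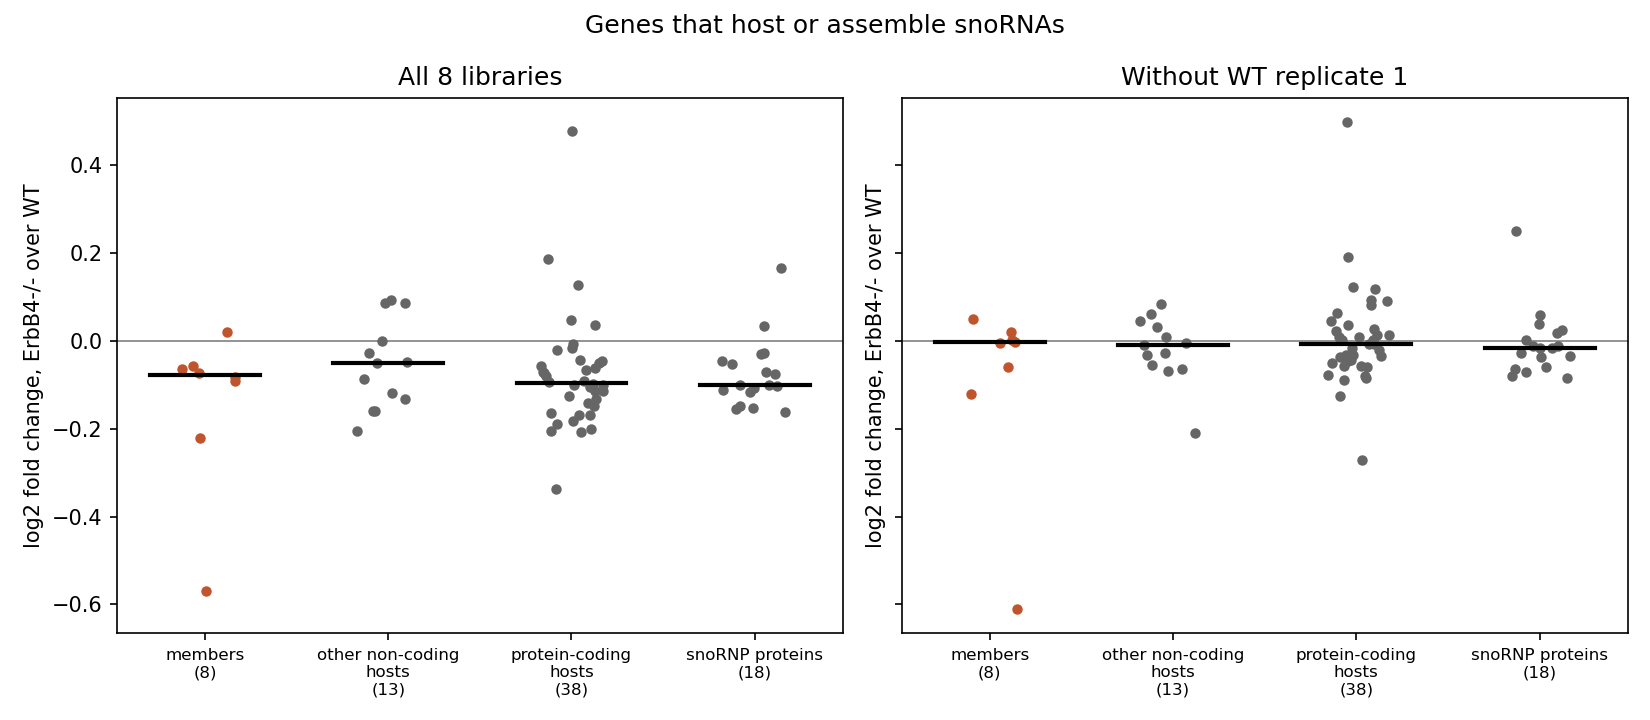
Log2 fold change, libraries labelled ErbB4-/- over WT, of each tested gene of 4 lists (points; n in parentheses) with the list median (black bar), over all 8 libraries on the left and without WT replicate 1 on the right. The medians lie between -0.10 and -0.05 on the left and between -0.02 and 0 on the right, and the lowest point in both panels is Gas5.

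Genes that act on the level or the described functions of Gas5 RNA did not pass the test either. Of 19 genes of nonsense-mediated decay and the exon junction complex, 6 were higher and 13 lower (median -0.03), with Smg1, the kinase that phosphorylates Upf1, at 155 ± 38.5 CPM in WT and 178 ± 12.03 in those labelled ErbB4-/-. The list also held Smg5 (log2 fold change -0.03, SE 0.05) and Casc3 (-0.03, SE 0.04). Of 17 genes that control translation of TOP RNAs, 10 were higher and 7 lower (median 0.02). Larp1, which binds TOP starts, was at 164 ± 6.25 and 168 ± 2.29 CPM, and Eif4g1, Eif4b and Pabpc1 had log2 fold changes of -0.05, 0.02 and -0.05. Of 12 genes for the glucocorticoid receptor, its chaperones and its targets, 7 were higher and 5 lower (median 0.04). The chaperones Hsp90ab1 and Hsp90aa1 had log2 fold changes of -0.06 and -0.02, the immunophilin Fkbp4 one of -0.11, and the receptor target Fkbp5 was at 94.4 ± 6.32 and 91.6 ± 0.570 CPM.

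Other genes named for growth arrest share the name with Gas5 and not its structure. Of 5 tested, 2 were higher and 3 lower (median -0.02). Gas7 was at 166 ± 10.9 CPM in WT and 177 ± 5.55 in the libraries labelled ErbB4-/-. Gas1, a membrane protein of Hedgehog signalling, was at 93.1 ± 11.03 and 84.0 ± 7.95, Gas6 at 22.3 ± 1.56 and 23.3 ± 2.65, and Gas2 at 14.1 ± 0.864 and 13.8 ± 1.22. None passed the test.

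The tissue carried its defining markers, with Neurod6, Neurod2 and Bcl11b at means of 508 to 977 CPM. Markers of cycling progenitors were lower in all 16 genes of their list (median -0.19), although 0 passed an adjusted p of 0.05 in edgeR. At an unadjusted p of 0.05 the count was 5 of 16 (Ccnd1, Mcm2, Mcm6, Pax6 and Vim), against 5.53% of all genes. Their summed level ran from 3011 to 3648 CPM in WT and from 2827 to 3467 CPM in the libraries labelled ErbB4-/-. Mcm6, a subunit of the replicative helicase that also lies on chromosome 1, was the largest of these (139 ± 23.7 and 92.3 ± 9.08 CPM, edgeR adjusted p = 0.469). Without WT replicate 1 their median was -0.14 with all 16 still lower, and the part of these cells in the level of Gas5 was not tested. Neuronal markers summed to 9152 to 9372 CPM in WT and 9287 to 9842 CPM in the others, with 7 of 11 higher (median 0.02).

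Ganglionic eminence and interneuron markers summed to 594 to 778 CPM in WT and 570 to 775 CPM in the libraries labelled ErbB4-/-, with 4 of 11 higher. Meningeal markers summed to 13.1 to 15.9 and 12.6 to 20.9 CPM, microglial markers to 45.6 to 53.9 and 47.6 to 55.6 CPM, and endothelial and pericyte markers to 156 to 169 CPM under both labels. Of the last list, the labels lay on separate sides for 1 of 6 genes, beside 3.34% of all genes tested. It was the pericyte receptor gene Pdgfrb (18.8 ± 0.925 CPM in WT, 21.3 ± 2.04 in those labelled ErbB4-/-, edgeR adjusted p = 0.810). The labels also lay on separate sides for 2 of 38 protein-coding hosts, 1 of 18 snoRNP genes and 1 of 16 progenitor markers. Red blood cell markers summed to 33.2 to 58.1 CPM in WT and 23.2 to 36.7 in the others, with the adult globin genes Hba-a1, Hba-a2 and Hbb-b2 at 0 reads in every library. Whether the RNA of these globin genes was absent or its reads were left uncounted cannot be told from the counts. Of 5 red blood cell genes tested, 2 were higher and 3 lower, and 0 passed an adjusted p of 0.05 in edgeR. At an unadjusted p of 0.05 the count was 2 of 5, against 5.53% of all genes. These 2 were the embryonic globins Hbb-y (26.6 ± 9.14 and 8.20 ± 6.89 CPM, edgeR adjusted p = 0.810) and Hba-x (6.24 ± 0.955 and 2.71 ± 1.63 CPM, edgeR adjusted p = 0.740). Alas2 and Slc4a1 had log2 fold changes of 0.21 and 0.11, and the part of blood in the level of Gas5 was not tested.

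**Figure D5:**
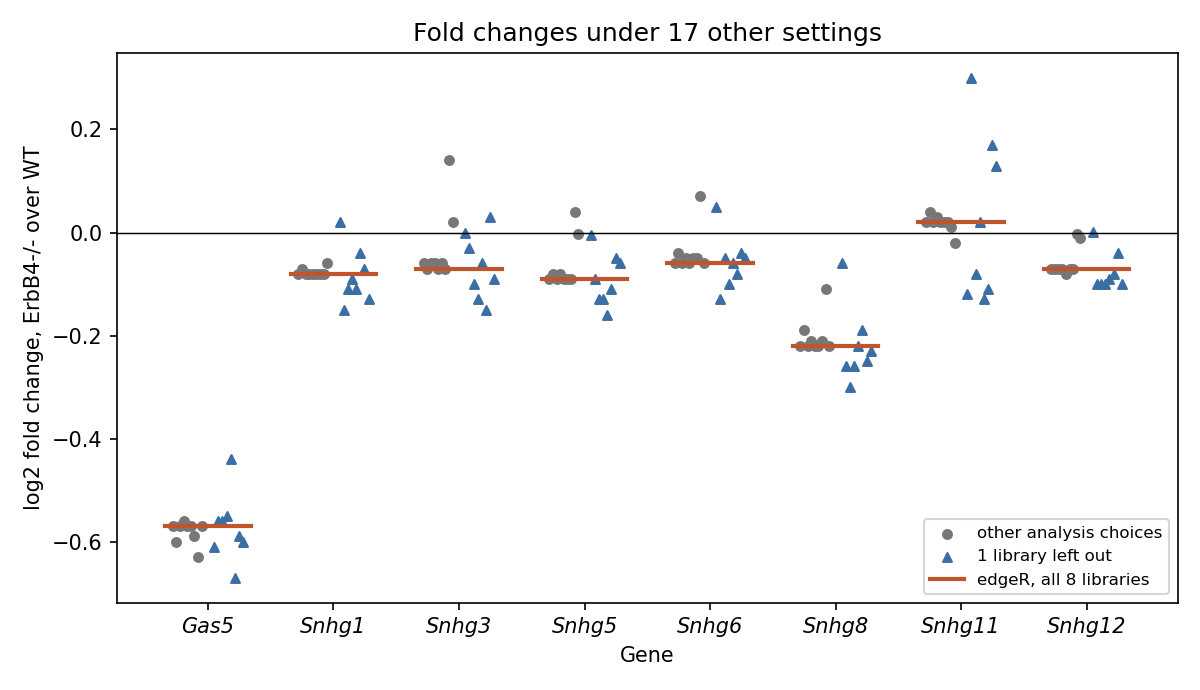
Log2 fold change of the 8 genes, libraries labelled ErbB4-/- over WT, in edgeR with all 8 libraries (orange bars), under 9 other analysis choices (grey circles) and with each library left out (blue triangles). Gas5 stays between -0.67 and -0.44, Snhg8 stays under 0, and the other 6 genes have values on both sides of 0.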

How the data were processed

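Reads of 8 poly(A)-selected, non-strand-specific libraries (single-end, HiSeq-4000) were mapped by the authors to mm9 with HISAT and counted per gene symbol with HTSeq, and whole-number counts were deposited for each library. Versions are not given in the sources used here. A deposited table of the authors' own comparison was not used. Counts of 28205703 to 48871480 per library were fitted here with edgeR 4.0.16 in R 4.3.3 (filterByExpr, TMM, quasi-likelihood F test, Benjamini-Hochberg over 14696 genes, threshold 0.05). CPM used TMM-scaled library sizes, and intervals are 95%. The common biological coefficient of variation was 10.7%. Alternatives were DESeq2 1.42.0, limma-voom 3.58.1, other scalings and filters, a replicate block, a term for Ddx3y above 10 CPM, removal of the length trend, and each library left out. The fit was tested on simulated data. Exact permutation tests used log2 CPM with a prior count of 2. Members and lists were chosen with earlier results of these data known. Named genes were the members, list genes past 0.05 or else the 4 most abundant of a list, tested genes within 100 kb of a member, and the 5 genes most like Gas5. Dancr, Ccnd1, Mcm2, Mcm6, Pax6, Pdgfrb, the genes beside Snhg6 and Snhg8 and those like Snhg11 were named after their values were seen. Positions are from the GENCODE annotation of mm9, and promoter windows from RefSeq, GRCm38.p6. Fold changes are the libraries labelled ErbB4-/- over WT. Values of a few genes that this rule names are not reported here.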

Additional observations from a re-analysis of the deposited data

Results flagged for a closer look

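Among the 16 sets of 4 libraries (8 genes under 2 labels), 1 value stood apart from the others of its label: Snhg12 in WT replicate 1, at 16.9 CPM, where the other WT libraries were at 13.8 to 13.9 CPM. Its gap to the nearest library was larger, as a share of the range of the 4, than the 95% critical value of Dixon's test, which chance alone passes in about 1 of 20 sets. The same library was the highest of the 8 for 6 members (75.0%), beside 29.9% of all genes tested.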

How the results depend on the processing

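Under 17 other settings, Gas5 was lower in the libraries labelled ErbB4-/- each time (log2 fold change -0.67 to -0.44), and none of the other 7 members passed an adjusted p of 0.05. DESeq2 called 23 genes where edgeR called 4. The DESeq2 calls held 1 member, Gas5, which such a comparison of these libraries had selected, so nothing is read from that call. RLE and upper-quartile scaling, the sex term and the replicate block each called 1 gene, and leaving out 1 library called 1 to 13. The replicate block left 0 members called, with Gas5 at -0.59. Deviations of same-numbered libraries correlated at 0.024 to 0.135, so the numbers were not taken as pairs. WT replicates 1 and 2 correlated best with the ErbB4-/- library of their own number, and WT replicates 3 and 4 with another. The sign turned for Snhg3, Snhg5 and Snhg6 with the sex term (0.14, 0.04 and 0.07), and for Snhg3 and Snhg11 with the length trend removed (0.02 and -0.02). With 1 library left out, Snhg1 ran from -0.15 to 0.02, Snhg3 from -0.15 to 0.03, Snhg6 from -0.13 to 0.05, Snhg12 from -0.10 to 0.00071 and Snhg11 from -0.13 to 0.30. The cause was not tested. Over the longest transcript, levels per kb in WT moved to 54.5 CPM for Gas5, 16.2 for Snhg11, 15.7 for Snhg12 and 9.66 for Snhg3. Medians of the lists without WT replicate 1 were added after seeing the data.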
